A study of Mus musculus with 2 samples.

Results

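Low-gene cells under the mitochondrial limit were the barcodes of droplet-based scRNA-seq chosen by gene number and mitochondrial share: at least 200 and fewer than 600 genes were detected, and at most 10% of unique molecular identifiers (UMIs, each counting 1 captured RNA molecule) came from genes of the mitochondrial genome. They numbered 382 of the 7622 barcodes in the deposited counts, 59 of 4459 from mice kept on control diet (CD) and 323 of 3163 from mice given a high fat diet (HFD) overnight. All mice were male and aged 8 to 12 weeks. Adipose tissue macrophages (ATMs) were released from epididymal fat with collagenase and sorted as CD45+Lin-Ly6Clow/-F4/80+ cells, where Lin- stands for cells without markers of other lineages, among them TCRb, SiglecF and Ly6G, with CD11b in the gate as well per the methods, and the cells of 3 mice were pooled into 1 library for each diet. The libraries held 15003119 UMIs in CD and 9164686 in HFD. Each diet thus had 1 library and no replicate, cells are not replicates, and no test between diets or cell classes was possible. Intervals are exact 95% intervals for counting error only, and values set between diets compare 1 library with another.

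Fat holds resident macrophages, many of them along vessels, that are known for *Lyve1*, *Folr2* and the scavenger receptor *Cd163*, and macrophages that monocytes replenish, which carry *Ccr2*, *Lyz1* and *Ear2* while they mature. Digestion of tissue is known to switch on immediate early genes such as *Fos* and *Jun* and heat shock genes such as *Hspa1a* in macrophages. *Malat1* is a long noncoding RNA that stays in the nucleus, whereas most messenger RNA is cytoplasmic. A barcode with few genes may be a small or quiescent cell, a cell that has lost cytoplasm, or a droplet with a fragment, and single-cell studies commonly remove barcodes with few genes or a high mitochondrial share.

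Genes and mitochondrial share chose the members, so their values are given only as a description. Members had a median of 480 genes and 788 UMIs in CD and 477 genes and 828 UMIs in HFD. Their median mitochondrial share was 6.96% in CD and 7.59% in HFD. The reference cells, with 1000 to 3500 genes and the same mitochondrial limit, numbered 2023 in CD and 1196 in HFD, with medians of 4961 and 5276.5 UMIs and mitochondrial shares of 3.72% and 2.53%. Members summed to 47558 UMIs in CD and 272826 in HFD, and each pool was scaled to a total of 1000000 (CPM), so that 1 UMI amounted to 21.0 CPM in the CD pool and 3.67 CPM in the HFD pool. The upper gene limit and the mitochondrial limit cut through continuous distributions. At the upper gene limit the last HFD member had 598 genes and the first cells beyond it 600 in CD and 601 in HFD. Between 550 genes and this limit lay 11 CD and 67 HFD members, and in the next 50 genes above it 20 and 75 cells. At the mitochondrial limit the last members were at 9.98% in both libraries and the first barcodes beyond it at 10.07% and 10.02%, with 16 and 80 members above 9% and 20 and 79 barcodes between 10% and 11%. At the lower limit the fewest genes of a member were 294 in CD and 214 in HFD, and the most below 200 genes were 186 and 125.

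Among barcodes with at least 200 genes within the mitochondrial limit, low-gene cells made up 2.47% in CD (59 of 2387, 1.89 to 3.18%) and 15.9% in HFD (323 of 2027, 14.4 to 17.6%), a difference of 13.46 percentage points (Newcombe interval 11.78 to 15.21). It was 3.99 points at a mitochondrial limit of 5% and 3.06 points for members with under 400 genes. Barcodes in this gene range were frequent in both libraries when the mitochondrial limit was not applied, 1472 in CD and 1292 in HFD. In CD 4.01% of these were within the limit (3.06 to 5.14%), against 25% in HFD (22.7 to 27.5%). Above the limit, 382 CD and 657 HFD barcodes had 10 to 20% mitochondrial UMIs and 1031 and 312 had over 20%. The libraries thus differed more in the mitochondrial share of few-gene barcodes than in the number of such barcodes. When UMIs of the CD library were thinned so that the median UMIs of barcodes with at least 200 genes within the mitochondrial limit (4538 in CD) matched the 2803 of HFD, 9.14% of CD cells were members and the difference was 6.79 points. This thinning follows a median that itself includes the low-gene cells. The median UMIs of reference cells were 4961 in CD and 5276.5 in HFD, but these cells were chosen by gene number, which largely sets their UMIs. Over all barcodes the medians were 2048 and 1445 UMIs. The part of depth in the difference was not tested.

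**Figure D1:**
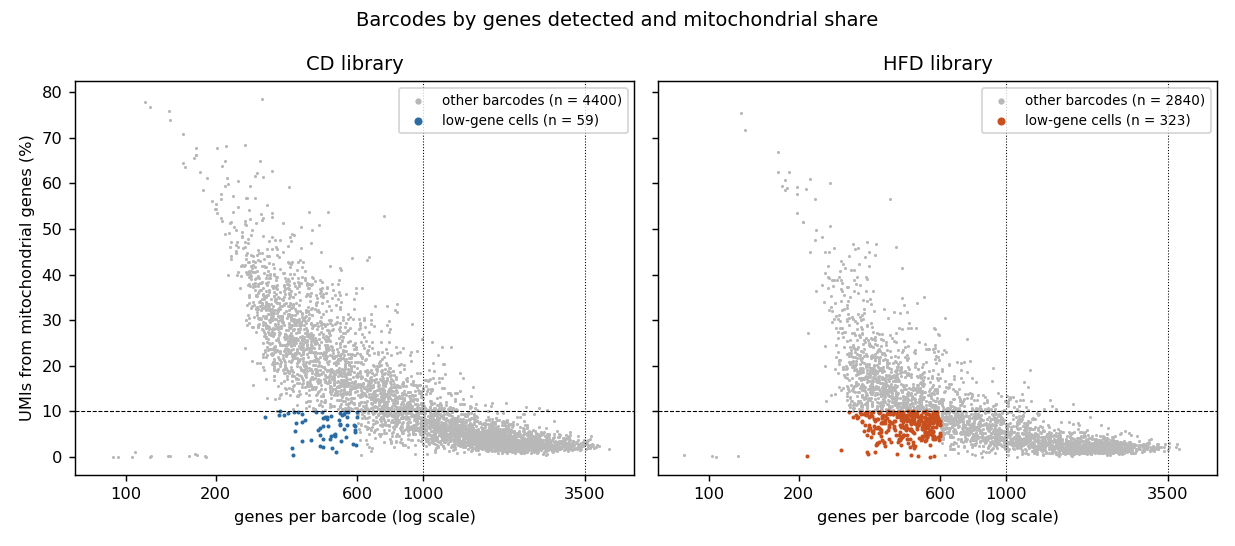
Each point is 1 barcode of the CD (left) or HFD (right) library, by genes detected (log scale) and percent of UMIs from mitochondrial genes. Coloured points are the 59 CD and 323 HFD low-gene cells, the dashed line is the 10% limit and dotted lines bound the 1000 to 3500 genes of reference cells. The HFD cloud of few-gene barcodes reaches further below the 10% line than the CD cloud.

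The pooled RNA of the members held macrophage genes in both libraries, and single barcodes held RNA of other lineages. *Lyz2*, the lysozyme of myeloid cells, was at 5025 CPM in CD members and 6227 CPM in HFD members, and *C1qa*, a subunit of complement C1q made by tissue macrophages, at 4605 and 2654 CPM. How much of this was free RNA in the droplets was not tested. The 10 pan-macrophage genes summed to 17074 CPM in CD members and 14742 CPM in HFD members, against 25252 and 27046 CPM in reference cells. Of the genes tested, *Lyz2* was lower in both libraries (log2 ratio -1.36 in CD and -1.66 in HFD) and *Csf1r*, the receptor for the macrophage growth factor CSF1, was higher in HFD (1.01), with 0.37 in CD. In HFD, 2 barcodes held 5207 and 2225 of the 7455 UMIs of the erythroid list (haemoglobin genes and *Alas2*), 92.9% and 85.2% of their own UMIs, with 214 and 278 genes. In CD, 1 barcode with 509 genes held 86 of the 105 UMIs of the neutrophil list, 8.68% of its UMIs, and another with 364 genes held 31 of the 39 UMIs of the adipocyte list. The erythroid list was at 273 CPM in CD members and 27325 CPM in HFD members, against 887 and 14.5 CPM in reference cells. The neutrophil list stood at 2208 and 323 CPM, against 131 and 79.8 CPM, and its most abundant gene in HFD members was *Mmp9* (83 of 88 UMIs), with 6 of 8 genes at 0. The adipocyte list stood at 820.1 and 198 CPM against 62.5 and 28.5 CPM, led by *Car3*. The endothelial list stood at 252 and 117 CPM against 27.1 and 10.4 CPM, led by *Cldn5*, with 3 of 8 genes at 0 in CD and 1 of 8 in HFD.

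The other lists of foreign cells were sparse in low-gene cells. B cell genes summed to 18 UMIs in CD and 50 in HFD, of which *Ighm* gave 16 and 47, stromal genes to 5 and 21 UMIs, of which 17 in HFD lay in 1 barcode, and cell cycle genes to 5 and 6. Dendritic cell genes had 0 and 13 UMIs, peritoneal macrophage genes 0 and 7, platelet genes 1 and 7, mesothelial genes 1 and 1, and T or NK cell genes 0 and 1. No UMI of the eosinophil, mast cell or epithelial lists was found in either pool. By a floor of 3 counts, a list at 0 UMIs allows up to 63.1 CPM in CD and 11 CPM in HFD. Of the 59 CD and 323 HFD members, 46 and 287 had fewer than 2 UMIs of every such list, so 13 and 36 had 2 or more of at least 1 list. Sequences of 14 barcodes occurred in both libraries, and 4 HFD and 0 CD members were among them. No doublet caller was run.

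The first comparison asked which macrophage programs the low-gene cells held relative to reference cells of the same library. A gene was tested at a mean of at least 50 CPM over both pools, and called where the ratio was at least 2-fold with an interval excluding equality. In CD, 295 of 2644 genes were higher in low-gene cells (11.2%) and 125 lower (4.73%). In HFD, 463 of 2527 were higher (18.3%) and 361 lower (14.3%). The median log2 ratio of all genes tested was 0.31 in CD and 0.07 in HFD. A gene that passed the filter through the low-gene pool alone could only come out higher there, so these shares depend on the filter. At a mean of at least 100 CPM, 146 of 1342 were higher and 109 lower in CD, and 199 of 1226 and 240 in HFD. At 20 CPM, 456 of 5221 were higher and 125 lower in CD, and 1042 of 5239 and 535 in HFD. Of 2188 genes tested in both, 85 were higher in both libraries, which is 28.8% of those higher in CD and 18.4% of those higher in HFD. Lower in both were 88, 70.4% of those lower in CD and 24.4% of those lower in HFD, and 3 genes were called in opposite directions. The libraries share no cells, but 1 rule on genes and mitochondrial share chose the members of both.

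Most resident genes tested were higher in low-gene cells of HFD, while in CD their calls were near those of all genes. *Selenop*, which encodes the selenium transport protein, was at 5341 CPM in CD low-gene cells against 4002 CPM in reference cells, and at 3255 against 1546 CPM in HFD. Its log2 ratio was 0.42 (0.23 to 0.59) in CD and 1.07 (0.97 to 1.17), or 2.10-fold, in HFD. *Apoe*, the lipid carrier apolipoprotein E, was at 11165 against 8486 CPM in CD and at 10252 against 6067 CPM in HFD, with log2 ratios of 0.40 (0.27 to 0.52) and 0.76 (0.70 to 0.81). With each cell given equal weight the CD ratios turned to -0.03 for *Selenop* and -0.11 for *Apoe*. *Folr2*, folate receptor beta, was at 883 against 1123 CPM in CD, a log2 ratio of -0.35 whose interval included 0 (-0.82 to 0.09). In HFD *Folr2* was at 487 against 231 CPM, a log2 ratio of 1.08 (0.81 to 1.33). So *Folr2* was higher in HFD low-gene cells, and its CD ratio was not distinguishable from equality at a depth of 42 UMIs. On GRCm38, *Selenop* lies at chr15:3268547-3280508, *Apoe* at chr7:19696109-19699188 and *Folr2* at chr7:101839988-101857194, and each value counts the whole gene.

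The 22 genes of the resident list together made 31057 CPM in CD low-gene cells against 25738 CPM in reference cells, a log2 ratio of 0.27 (0.20 to 0.34). In HFD they made 24759 against 12719 CPM, a log2 ratio of 0.96 (0.93 to 0.997). In CD 3 of 22 genes tested were higher (*Gas6*, *Stab1* and *Timd4*) and none lower, a share near that of all genes, and their median of 0.33 was near the 0.31 of all genes. *Timd4* rested on few UMIs of the CD low-gene pool, whose level counted toward the filter, so its call is only a description. In HFD 16 of 21 were higher and none lower, with a median of 1.23 against 0.07 for all genes. *Stab1*, a scavenger receptor of resident macrophages, was at 652 against 243 CPM in CD and at 740.4 against 96.6 CPM in HFD, 2.68-fold and 7.66-fold higher. *Gas6*, the ligand of the receptors MERTK and AXL that help clear dying cells, was 2.27-fold and 6.67-fold higher, at 883 and 583 CPM. *Cd163* was called in HFD alone, at 704 against 149 CPM, with 421 against 256 CPM in CD, as was the mannose receptor gene *Mrc1*, at 1276 against 415 CPM, with 1219.6 against 803 CPM in CD. The summed CD value did not hold its direction. It was -0.16 with each cell given equal weight, -0.26 at a mitochondrial limit of 5% and -0.16 in the 14 members with under 400 genes, whereas the HFD value lay between 0.47 and 1.39 under all 12 alternatives. Many genes of the resident and recruited lists are markers that the study chose on these same samples, so their grouping is not independent evidence of a program.

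Most recruited genes tested were lower in HFD low-gene cells, and in CD a minority were. *Lyz1*, a lysozyme of monocyte-derived cells, was at 820.1 CPM in CD low-gene cells against 3210.4 CPM in reference cells, and at 1627 against 6402 CPM in HFD. The fall was 3.91-fold in CD (log2 ratio -1.97, -2.46 to -1.52) and 3.93-fold in HFD (-1.98, -2.11 to -1.84). *Ear2*, an eosinophil-associated ribonuclease that monocyte-derived cells also carry, was at 315 against 848 CPM in CD and at 498 against 1874 CPM in HFD, with log2 ratios of -1.43 (-2.26 to -0.70) and -1.91 (-2.17 to -1.67). *Fn1*, fibronectin, was lower in HFD, at 891 against 2073 CPM (-1.22, -1.41 to -1.04). In CD it stood at 799.02 against 1485 CPM (-0.89, -1.39 to -0.44), under the 2-fold limit. The 3 genes thus stood below reference cells in both libraries, *Lyz1* by nearly the same factor. *Lyz1* lies at chr10:117287797-117292868, *Ear2* at chr14:44102654-44103534 and *Fn1* at chr1:71585520-71653200, and how reads were split between *Lyz1* and its near-identical neighbour *Lyz2* is uncertain.

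The recruited list of 22 genes made 8074 CPM in CD low-gene cells against 12341 CPM (log2 ratio -0.61, -0.76 to -0.47) and 5311 against 16938 CPM in HFD (-1.67, -1.75 to -1.60). In CD 4 of 14 genes tested were lower (*Lyz1*, *Ear2*, *Cd52* and *Lsp1*) and 2 higher, and 8 were not called, with a median of -0.56, against 4.73% lower among all genes. In HFD 12 of 14 were lower and none higher, with a median of -1.55, against 14.3% lower among all genes. The 2 higher genes in CD were *S100a8* and *S100a9*, which are also neutrophil genes, and all 48 and 28 of their UMIs lay in the 1 barcode with the neutrophil list. Without that barcode and the erythroid ones the CD value was -0.98. *Ccr2*, the receptor that brings monocytes into tissue, was at 589 against 569 CPM in CD and lower in HFD, at 319 against 642 CPM. The monocyte genes *Ly6c2*, *Vcan*, *Plac8* and *Chil3* had 0 UMIs in CD members and at most 3 of each in HFD. Their levels in reference cells are not given here, and the sort took Ly6Clow/- cells. By the floor of 3 counts, 0 UMIs in the CD pool allows up to 63.1 CPM. Of the 22 recruited genes, 7 were at 0 in CD members, so these zeros do not set the members apart from reference cells. The CD value was -1.23 in members with under 400 genes and -1.33 without cells with other lineages' genes. At a mitochondrial limit of 5%, with 18 members in CD, the CD value of the recruited list turned to 0.21, while HFD was at -1.02. Without the neutrophil and erythroid barcodes as well, the values there were -0.47 and -0.82.

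The stress list summed to higher levels in low-gene cells of both libraries, by less than 2-fold, and most of its genes were not called. *Fos* was at 5867 CPM against 4650.1 CPM in CD and at 7019 against 3951 CPM in HFD, with log2 ratios of 0.34 (0.16 to 0.50) and 0.83 (0.76 to 0.90). *Jun*, its partner in the AP-1 complex, was at 1745 against 1259.8 CPM in CD (0.47, 0.14 to 0.78) and higher in HFD, at 2273 against 981 CPM (1.21, 1.09 to 1.33). *Hspa1a*, an inducible HSP70 chaperone, was higher in CD, at 757 against 349 CPM (1.12, 0.60 to 1.59), and stood at 993 against 529.6 CPM in HFD (0.91, 0.72 to 1.09). *Fos* and *Jun* had the larger ratio in HFD, and the intervals of *Hspa1a* overlapped between the libraries. *Fos* lies at chr12:85473890-85477273, *Jun* at chr4:95049034-95052222 and *Hspa1a* at chr17:34969190-34972156, and *Hspa1a* and *Hspa1b* are near-identical copies whose split is uncertain.

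Over the 26 stress genes the sum was 44598 against 28579 CPM in CD (0.64, 0.58 to 0.70) and 51088 against 28018 CPM in HFD (0.87, 0.84 to 0.89). In CD 4 of 25 tested were higher (*Jund*, *Fosb*, *Klf6* and *Hspa1a*) and none lower, with a median of 0.58, against 11.2% higher and a median of 0.31 among all genes. In HFD 7 were higher (*Jund*, *Fosb*, *Klf6*, *Jun*, *Zfp36*, *Ier3* and *Egr1*) and *Hspe1* was lower, with a median of 0.81, against 18.3% higher and a median of 0.07 among all genes. *Fosb*, another AP-1 subunit, was at 2166 against 1059 CPM in CD and at 2976 against 869 CPM in HFD. *Klf6*, a zinc finger transcription factor, was at 2481 against 1081 CPM and at 2239.5 against 1052 CPM. Of the chaperones, *Hspa8*, *Hsp90ab1* and *Dnajb1* were called in neither library. The summed value stayed between 0.52 and 0.78 in CD and between 0.67 and 0.98 in HFD under the 12 alternatives.

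*Malat1* was higher in low-gene cells of both libraries. It made 49077 CPM in CD low-gene cells against 22820.4 CPM in reference cells, 2.15-fold higher (log2 ratio 1.10, 1.05 to 1.16). In HFD it made 105932 against 25793 CPM, 4.11-fold higher (2.04, 2.02 to 2.06). It lies at chr19:5795690-5802672. Per cell, the median share of UMIs from *Malat1* was 2.57% in CD members and 10.6% in HFD members, against 2.34% and 2.45% in reference cells. In HFD 54.2% of members had over 10% (48.6 to 59.7%), in CD 18.6% (9.69 to 30.9%), while 1.34% and 0.346% of reference cells did. So the median *Malat1* share of CD members was near that of reference cells, while the upper quartile of CD members was 8.51%. With at most 5% mitochondrial UMIs the CD ratio was -0.49. *Neat1*, another nuclear long noncoding RNA, was at 1493 against 893 CPM in CD and higher in HFD, at 2129.6 against 821 CPM. Of the nuclear noncoding list, 2 of 5 genes tested were higher in CD (*Malat1* and *Gm42418*) and 5 of 6 in HFD, against 11.2% and 18.3% of all genes, and none lower.

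**Figure D2:**
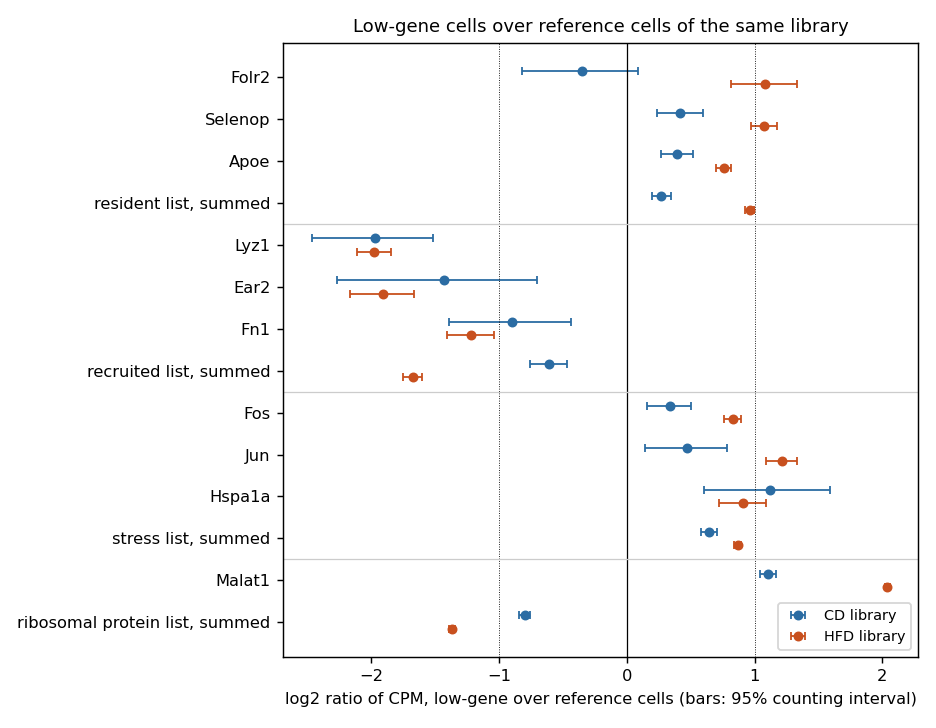
Log2 ratio of CPM in low-gene over reference cells of the same library (x axis) for the 10 genes of the rule and the summed lists (y axis); bars are 95% counting intervals and dotted lines mark 2-fold. Recruited genes lie left of 0 in both libraries, *Malat1* and the stress list right of 0, and resident genes further right in HFD than in CD.

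Lists of housekeeping messages of the cytoplasm summed to lower levels than in reference cells in both libraries, although in CD most of their genes were not called. Among all genes 4.73% were lower in CD and 14.3% in HFD. Ribosomal protein genes made 82278 against 143142 CPM in CD (-0.80, -0.84 to -0.75) and 60881 against 157172 CPM in HFD (-1.37, -1.39 to -1.35). In CD 32 of 79 were lower and in HFD 65 of 78, and none was higher in either. Nuclear genes of oxidative phosphorylation were lower for 4 of 24 in CD and 14 of 24 in HFD, with medians of -0.59 and -1.17. Glycolysis genes had 3 of 8 and 5 of 8 lower, and translation factors 2 of 11 and 4 of 11. Actin and cell surface genes summed to 37954 against 54298 CPM in CD and 27387 against 48924 CPM in HFD, with 3 and 5 of 14 lower. *Tmsb4x*, the actin-binding thymosin beta 4, was at 10976 against 20376 CPM in CD and lower in HFD, at 6807 against 18925 CPM, whereas *Actb* itself stood at 11270.4 against 13665 CPM and at 9859.8 against 10529 CPM. By contrast the mitochondrial genes, which the rule capped, made 66214 against 35942 CPM in CD and 68758 against 25119 CPM in HFD.

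Groups of macrophage function varied in how many genes were called, and their counts are to be read against 11.2% higher and 4.73% lower among all genes in CD and 18.3% and 14.3% in HFD. MHC class II genes summed to 31078 against 46466 CPM in CD (-0.58) and 30114 against 56806 CPM in HFD (-0.92), with 1 and 2 of 7 genes lower. *Cd74*, the invariant chain, was at 12637 against 21524 CPM in CD and lower in HFD, at 13140.2 against 28070.2 CPM. *Retnla*, a secreted protein of alternatively activated macrophages, was at 28176 against 35135 CPM in CD and lower in HFD, at 18605 against 43538 CPM. It was seen in all 59 and 323 members, also in the barcodes with erythroid, neutrophil or adipocyte RNA, so its presence does not mark a member as a macrophage. Lysosomal genes had 1 of 21 called in CD, *Ctsl* (higher), and 0 of 20 in HFD, with medians of 0.30 and 0.03, and C1q and efferocytosis genes 0 of 8 in each. Of cytokines and chemokines 0 of 13 were called in CD, and 3 of 15 were higher in HFD, *Cxcl16*, *Ccl12* and *Ccl3*, a share near that of all genes. Of the iron list, *Hmox1* and *Tfrc* were higher in HFD, 2 of 6, and 0 of 6 in CD. *Hmox1*, which degrades haem, was at 1019 against 305 CPM in HFD and at 715 against 402 CPM in CD. Genes of cell death and p53 had 2 of 8 higher and 2 lower in CD and 2 of 9 each way in HFD, with medians of 0.13 and 0.07. The alternative activation list had 1 of 5 higher in CD, *Ccl8*, with 28 of its 42 UMIs in 1 member, and in HFD *Il4ra* and *Clec10a* were higher and *Retnla* lower. In the lipid-associated list *Fabp4* and *Fabp5* were higher in CD and *Fabp4* and *Abca1* in HFD, of 7 and 5 tested, and *Lgals3* was lower in both.

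Among the 33 genes that were called higher in both libraries, at a mean of at least 100 CPM in each and with 1 sign under every alternative, the highest mean ratio belonged to *Fabp4*, a fatty acid binding protein of adipocytes, capillary endothelium and macrophages. *Fabp4* was at 2986 CPM in CD low-gene cells against 234 CPM in reference cells and at 1191 against 169 CPM in HFD. In CD its 142 UMIs lay in only 11 cells, with 53 in 1 of them, and in HFD its 325 UMIs lay in 82 cells, with 77 in 1. In CD the *Fabp4*-rich cells held other lineages' RNA, since the 3 members with the most endothelial UMIs held 32, 53 and 18 *Fabp4* UMIs and the one with the adipocyte genes held 31. In HFD the 3 members with the most endothelial UMIs held 77, 22 and 24. *Stab1* and *Gas6*, described above, were also in this set, with at most 4 UMIs in any 1 member. *Frmd4b*, which encodes a scaffold protein, was at 294 against 115 CPM in CD and 399.5 against 60.8 CPM in HFD. *Adap2os*, transcribed antisense to *Adap2*, was at 336 against 65.6 CPM and 257 against 36.4 CPM, and its reads may not be separable from those of *Adap2*. *AC160336.1* was 4.47-fold and 3.38-fold higher, with 10 of its 28 CD UMIs in 1 member, *Fam43a* 3.35-fold and 3.68-fold, and *Ssh2*, a phosphatase that activates cofilin, 3.67-fold and 3.34-fold.

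Among the 68 genes called lower in both libraries by that rule, *Eno1* and *Gapdh*, enzymes of glycolysis, had the lowest mean ratios. *Eno1* had 1 UMI in CD (log2 ratio -3.75, -9.06 to -1.27) and was at 110.0 against 407 CPM in HFD (-1.89, -2.46 to -1.37). *Gapdh* was at 84.1 against 492 CPM in CD and 95.3 against 419 CPM in HFD. *Rps2*, which encodes a ribosomal protein, was 4.54-fold lower in CD and 3.503-fold lower in HFD. *Tmsb10* and *Arpc1b*, of the actin cytoskeleton, were 3.26-fold and 4.63-fold lower in CD and 6.17-fold and 3.37-fold lower in HFD. *Cd52*, a small surface glycoprotein of leukocytes, was 2.77-fold and 5.47-fold lower, and *Lyz1*, described above, also belonged to this set.

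Levels were then followed over the number of genes per cell, in CPM of non-mitochondrial UMIs, to see where the low-gene cells lay. In HFD *Malat1* declined at every step, from 127660 in members with under 400 genes to 106218 in members with 500 or more and 21439 in cells with 2000 to 3500. In CD it stood at 66741, 49052 and 18155 in those ranges, and the pooled CD members, at 52557, stood below the cells just above the limit. Recruited genes stood at 4235 to 6113 in the 3 ranges of HFD members and 6147 to 7329 from 600 to under 1000 genes, and reached 19925 at 2000 to 3500 genes. In CD recruited genes stood at 5689, 7370 and 10316 in the 3 ranges of members, at 5799, 6444 and 5718 in the next ranges up to 1500 genes, and at 17202 in cells with 2000 to 3500. Resident genes peaked between, at 43221 in CD cells with 1000 to under 1500 genes and at 35972 in HFD cells with 800 to under 1000 genes, and stood at 24837 and 18810 in the members of fewest genes. Ribosomal protein genes stood at 67018 in CD and 54620 in HFD in the members of fewest genes and at 161334 and 172282 in cells with 2000 to 3500. In CD the values shifted at the upper gene limit, from members with 500 genes or more to cells with 600 to under 800, with recruited genes at 10316 (9054 to 11703) and then 5799 (5397 to 6224), *Malat1* at 49052 (46253 to 51976) and then 64582 (63223 to 65964), and ribosomal protein genes at 95193 and then 85317. Without the CD barcode with neutrophil genes these members had 6612 (5590.1 to 7768) of recruited genes, whose interval overlapped that of the cells above the limit, and 49951 (47065 to 52967) of *Malat1* and 95970 of ribosomal protein genes. The cells in the most gene-rich range were those lowest in resident and highest in recruited genes.

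**Figure D3:**
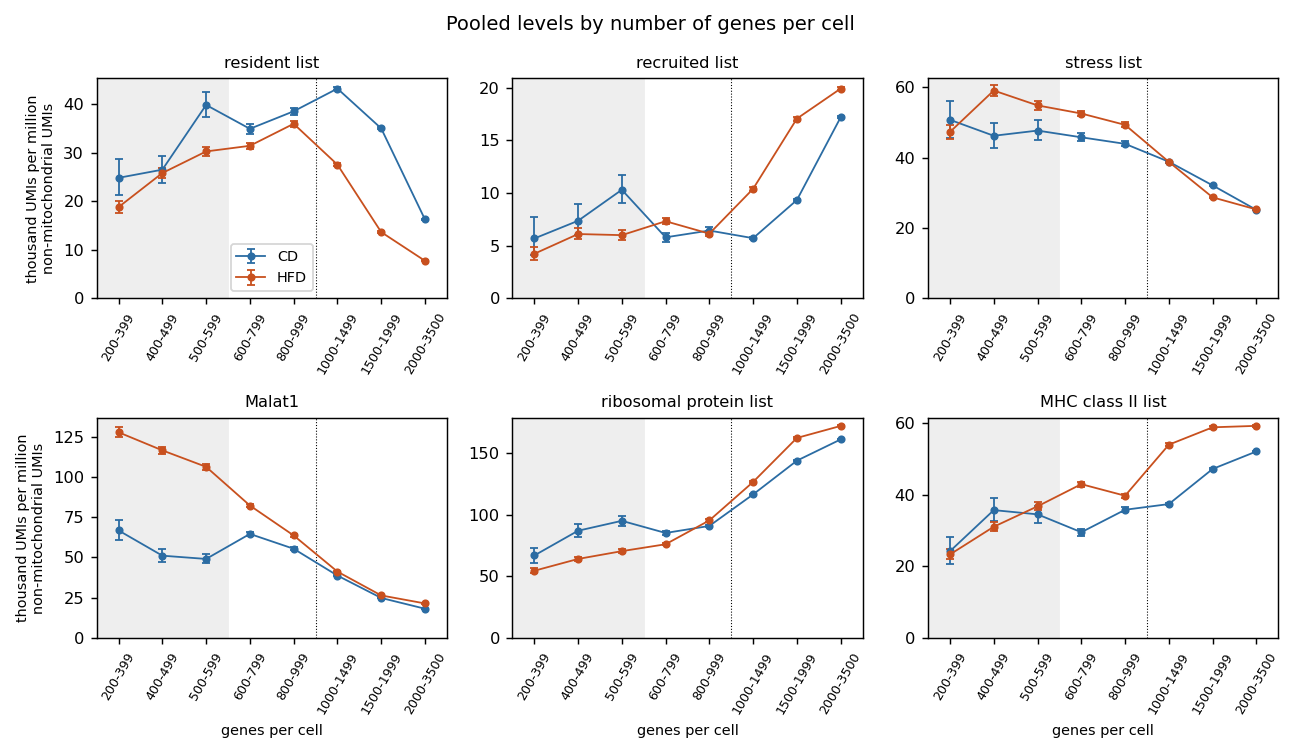
Levels in CPM of non-mitochondrial UMIs (y axes, in units of 1000, with 95% counting intervals) of 5 gene lists and *Malat1* in cells within the mitochondrial limit, by genes per cell (x axes). The grey band holds the low-gene cells and the dotted line the lower edge of the reference cells. With the erythroid and neutrophil barcodes kept, *Malat1* in HFD falls from 127660 to 21439 CPM from left to right.

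Within the members, programs varied with mitochondrial share. The 18 CD members with at most 5% had 14533 CPM of *Malat1*, the 15 with 5 to 7.5% had 48315 CPM and the 26 with 7.5 to 10% had 73753 CPM. In HFD the 68, 89 and 166 members of these ranges had 68321, 111073 and 119975 CPM. Recruited genes ran the other way, from 15986 to 5037 and 4721 CPM in CD and from 8528 to 5289 and 3889 CPM in HFD. Without the neutrophil and erythroid barcodes, all of which lay at 5% and below, the first of these values were 9944 CPM (8290.2 to 11832) in CD and 9804 CPM (8982 to 10682) in HFD, with overlapping intervals. Resident genes were lowest at 5% and below in both, at 18747 CPM in CD and 17754 CPM in HFD, against 44910 and 26665 CPM in the middle range. *Malat1* there was at 13468 and 78808 CPM without them, and resident genes at 19419 and 20358 CPM, still the lowest of the 3 ranges. The CD members of lowest mitochondrial share also included the barcodes with adipocyte and most endothelial UMIs, whose part in these values was not tested. Across cells, Spearman's rho of *Malat1* with ribosomal protein genes, as shares of each cell's non-mitochondrial UMIs, was -0.75 over 59 CD members and -0.61 over 323 HFD members. Resident against recruited gave -0.41 and -0.43, and *Malat1* against resident 0.39 and 0.09. The shares in a cell share its UMI total, which alone pushes such values below 0.

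Low-gene cells were set beside their neighbours across each limit on the same non-mitochondrial scale. In HFD members had 113753 CPM of *Malat1*, barcodes of the same gene range with 10 to 20% mitochondrial UMIs had 137472 CPM, and cells with 600 to under 1000 genes had 71953 CPM. In CD the values were 52557, 110652 and 58183. Ribosomal protein genes were at 65376, 58019 and 86855 in HFD and at 88113, 58554 and 89296 in CD. Recruited genes were at 5703, 4533 and 6676 in HFD and at 8647, 3868 and 6247 in CD. Resident genes were at 26587, 28152 and 33940 in HFD and at 33259, 32597 and 37445 in CD, and stress genes at 54859.5, 56426 and 50794 in HFD and at 47761, 50200 and 44520 in CD. On *Malat1*, ribosomal protein and recruited genes, CD members thus lay nearer to the cells above the gene limit. On resident genes they lay nearer to the barcodes above the mitochondrial limit. On stress genes they lay between, and counting error left unclear which class was nearer. HFD members lay nearer to the barcodes above the mitochondrial limit on *Malat1*, ribosomal protein, resident and stress genes. On recruited genes they lay between, again with the nearer class unclear within counting error. The median *Malat1* share of the barcodes with 10 to 20% mitochondrial UMIs was 8.60% in CD and 11.5% in HFD, so the libraries differed less there than among the members.

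To compare shares of cells with a UMI, all cells were first thinned to a depth of 500 UMIs, which every cell reached. *Folr2* was then seen in 39.0% of CD members (26.5 to 52.6%) and 23.2% of HFD members (18.7 to 28.2%), against 42.8% and 14.2% of reference cells. In reference cells with mostly recruited UMIs, which should lack it, *Folr2* was seen in 5.41% and 0.317%, at original median depths of 9370.5 and 7579 UMIs. These background groups, of mostly recruited or mostly resident UMIs, varied in size with the gene. For *Folr2* they held 148 CD and 315 HFD cells, fewer than the groups by resident share given below. *Lyz1* was seen in 23.7% of CD members (13.6 to 36.6%) and 39.3% of HFD members (34.0 to 44.9%), against 32.3% and 57.1% of reference cells and 9.60% and 13.6% of reference cells with mostly resident UMIs, whose median depths were 3875 and 3057.5 UMIs. *Selenop* was seen in 76.3% and 66.9% of members, against 73.8% and 44.1% of reference cells and 14.4% and 14.3% of those with mostly recruited UMIs. *Apoe* was seen in 89.8% and 93.8%, against 79.5% and 59.8%, with 27.0% and 27.8% in cells with mostly recruited UMIs. *Ear2* was seen in 16.9% and 18.9% of members and *Fn1* in 18.6% and 23.8%, against 19.3% and 40.8% and 26.8% and 45.4% of reference cells. These shares of members lay above the 2.67% and 5.18% and the 4.01% and 3.91% of reference cells with mostly resident UMIs. *Fos* was found in 89.8% and 93.5% of members against 86.5% and 83.2% of reference cells, *Jun* in 52.5% and 58.2% against 46.5% and 37.5%, and *Hspa1a* in 28.8% and 29.7% against 17.1% and 23.2%. *Malat1* was found in 93.2% and 97.8% of members, below the 99.3% and 99.2% of reference cells, although its pooled level was higher in members. Before thinning, *Folr2* was seen in 47.5% and 31.6% of members and in 85.3% and 42.6% of reference cells, at median depths of 788, 828, 4961 and 5276.5 UMIs. Thinning thus reversed the order of *Folr2* in HFD.

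Each thinned cell was also described by the resident share of its resident and recruited UMIs, where it had at least 5 of them. At least 66.7% of these UMIs were resident in 71.2% of CD members (42 of 59, 57.9 to 82.2%) and 81.0% of HFD members (252 of 311, 76.2 to 85.2%), against 66.4% and 36.8% of reference cells. Cells with 600 to under 1000 genes were at 84.9% in CD (237 of 279, 80.2 to 88.9%) and 81.1% in HFD (404 of 498, 77.4 to 84.5%). At most 33.3% were resident in 8.47% of CD members (2.81 to 18.7%) and 9.65% of HFD members (6.60 to 13.5%), against 23.4% and 50.3% of reference cells. These are ranges of a continuous share, and 6 CD and 32 HFD members lay within 5 percentage points of a limit. Mostly resident cells were the most frequent among the members of both libraries, as they were among the cells just above the gene limit, whereas mostly recruited ones were the most frequent among HFD reference cells.

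**Figure D4:**
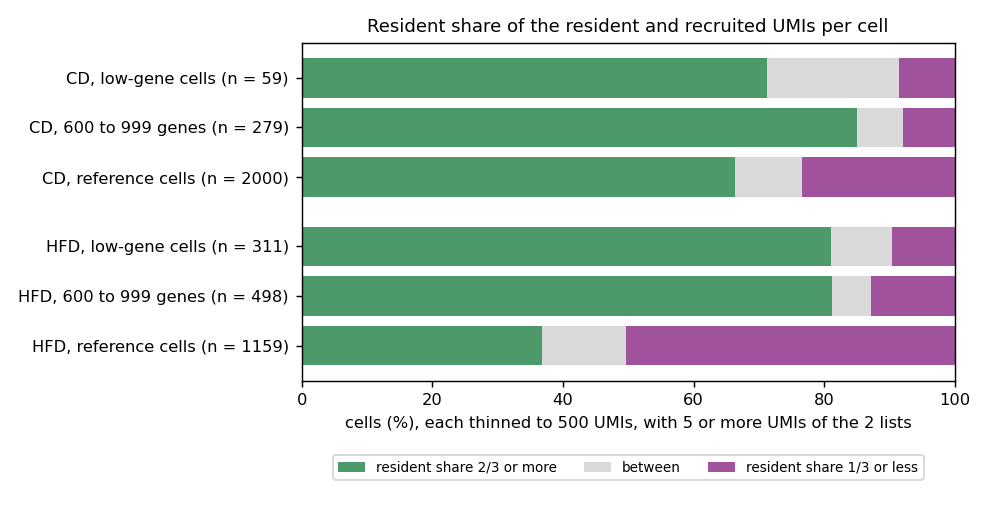
Percent of cells (x axis) by the resident share of their resident and recruited UMIs after thinning to 500 UMIs, for 3 classes of cells in each library (y axis, with the number of cells with at least 5 such UMIs). Green is a resident share of at least 66.7%, purple one of at most 33.3%; 81.0% of HFD low-gene cells are green against 36.8% of HFD reference cells.

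The last comparison set HFD over CD in low-gene cells, with the same ratio in reference cells beside it. Of 2790 genes tested in low-gene cells, 38 were higher in HFD (1.36%) and 164 lower (5.88%), with a median log2 ratio of -0.27. In reference cells 27 of 2368 were higher (1.14%) and 63 lower (2.66%), with a median of -0.03. A gene that passed the filter through its CD low-gene level alone could only come out lower in HFD. In the small CD pool few UMIs sufficed for that, so the filter itself favours lower calls in low-gene cells. With the CD library thinned, which gave 218 CD members, 71 of 2715 genes were higher and 112 lower, with a median of -0.087. *Malat1* was higher in HFD low-gene cells by 2.16-fold (log2 ratio 1.11, 1.05 to 1.17), and its ratio in reference cells was 0.18 (0.17 to 0.19). The difference between these ratios was 0.93 (0.87 to 0.99). The low-gene ratio varied with mitochondrial share: it was 2.23 with at most 5% mitochondrial UMIs, where CD members had 14533 CPM and HFD members 68321 CPM, while from 7.5 to 10% they had 73753 and 119975 CPM.

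Resident genes were lower in HFD reference cells and less so in HFD low-gene cells. The summed list had a log2 ratio of -0.33 (-0.41 to -0.24) in low-gene cells against -1.02 (-1.03 to -1.01) in reference cells, a difference of 0.69 (0.61 to 0.77). In low-gene cells 4 of 22 genes were lower (*Timd4*, *Cbr2*, *Cd209d* and *Ccl24*) and in reference cells 16 of 21, with medians of -0.52 and -1.47 and none higher, against 5.88% and 2.66% lower among all genes. *Timd4*, a receptor for phosphatidylserine, passed the filter only through the CD pool, with 7 UMIs or 147 CPM against 18.3 CPM in HFD, and was not tested in reference cells. The summed value in low-gene cells turned to 0.068 at a mitochondrial limit of 5% without erythroid and neutrophil barcodes. *Folr2* gave -0.86 (-1.37 to -0.32) against -2.28 (-2.36 to -2.21), *Selenop* -0.71 (-0.92 to -0.51) against -1.37 (-1.40 to -1.34) and *Apoe* -0.12 (-0.26 to 0.01) against -0.48 (-0.50 to -0.47). In each of the 3 genes the low-gene ratio lay nearer 0, with the intervals of the ratios apart.

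Recruited genes did not share 1 pattern. *Lyz1* gave 0.99 (0.51 to 1.5) in low-gene cells and 0.996 (0.98 to 1.02) in reference cells, and *Ear2* 0.66 (-0.11 to 1.54) and 1.14 (1.11 to 1.18). *Fn1* gave 0.16 (-0.34 to 0.69) and 0.48 (0.45 to 0.51). These ratios of low-gene cells could not be told from those of reference cells, nor those of *Ear2* and *Fn1* from 0. The list summed to -0.60 (-0.77 to -0.44) in low-gene cells and 0.46 (0.45 to 0.47) in reference cells. In low-gene cells 0 of 14 genes were higher and 5 lower, *S100a8*, *S100a9*, *S100a6*, *S100a4* and *Msrb1*, against 3 higher in reference cells, *Ear2*, *Thbs1* and *Plac8*. Among all genes 1.36% were higher and 5.88% lower in low-gene cells, and 1.14% and 2.66% in reference cells. *S100a8* and *S100a9* came from the 1 CD barcode with neutrophil genes, and without it and the erythroid barcodes the sum was -0.19, or -0.020 with at most 5% mitochondrial UMIs.

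Stress genes as a list gave 0.20 (0.13 to 0.26) in low-gene cells and -0.03 (-0.04 to -0.02) in reference cells, and none of 25 was called in low-gene cells. *Fos* gave 0.26 (0.08 to 0.45) against -0.24 (-0.26 to -0.21), *Jun* 0.38 (0.05 to 0.73) against -0.36 (-0.40 to -0.32), and *Hspa1a* 0.39 (-0.11 to 0.94) against 0.60 (0.54 to 0.67). In members with under 400 genes the list gave -0.08 and *Fos* -0.28, and without the erythroid barcodes, which have that few genes, 0.16 and -0.037. Ribosomal protein genes gave -0.43 (-0.48 to -0.38) against 0.13 (0.13 to 0.14), with 4 of 79 lower, against 5.88% of all genes. MHC class II genes gave -0.05 (-0.13 to 0.04) against 0.29 (0.28 to 0.30). *Retnla* gave -0.60 in low-gene cells and 0.31 in reference cells.

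In members with under 400 genes *Lyz1* turned to -0.20 and *Cd52*, at -0.77 in all members, to 1.17. Both erythroid barcodes lie in this HFD pool, and without them *Lyz1* gave 0.018 and *Cd52* 1.32, so that *Cd52* still turned and *Lyz1* was near 0.

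The genes highest in HFD over CD low-gene cells rested on few UMIs in CD. *Id2*, an inhibitor of basic helix-loop-helix factors, had 1 UMI in CD and 51 in HFD (log2 ratio 3.15, 0.61 to 8.48), and *Notch2*, a Notch receptor, 2 and 94 (3.03, 1.14 to 6.10). *Vmp1*, which acts in autophagy, was at 147 CPM in CD and 608 CPM in HFD, a ratio of 2.05 (0.97 to 3.38) against 0.32 in reference cells. *Plin2*, which coats lipid droplets, was at 421 and 1440.5 CPM, 1.78 (1.13 to 2.5), and *Lgals3*, galectin-3, at 210.3 and 630.4 CPM, 1.58 (0.67 to 2.67). In reference cells *Plin2* gave 1.51 and *Lgals3* 1.26, so that these 2 genes of lipid-laden macrophages were higher in HFD in both classes. Of the lipid-associated list 3 of 6 genes tested were higher in low-gene cells (*Abca1* as well) and *Fabp4* and *Fabp5* lower, against 1.36% and 5.88% of all genes, and the list summed to -0.24. *Fabp4* gave -1.33, but 1.81 without cells with other lineages' genes and 0.25 with the CD library thinned. *Ccl3*, *Pitpna* and *Wnk1* followed, with 3, 4 and 7 UMIs in CD. Lower in HFD were *Cfd*, *Pgrmc1*, *Cd300ld*, *Lst1*, *Myl12b*, *Rgcc*, *Ypel5* and *Dbnl*, each with 8 to 20 UMIs in CD members and log2 ratios from -2.52 to -1.94. For *Cfd*, the adipocyte-secreted complement factor D, 12 of the 20 CD UMIs lay in 1 member. These names were the 8 highest of 16 and the 8 lowest of 58 genes called by the same rule on CPM and sign, although *Myl12b* turned to 0.52 with at most 5% mitochondrial UMIs and no erythroid and neutrophil barcodes, a combination that the rule did not use.

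**Figure D5:**
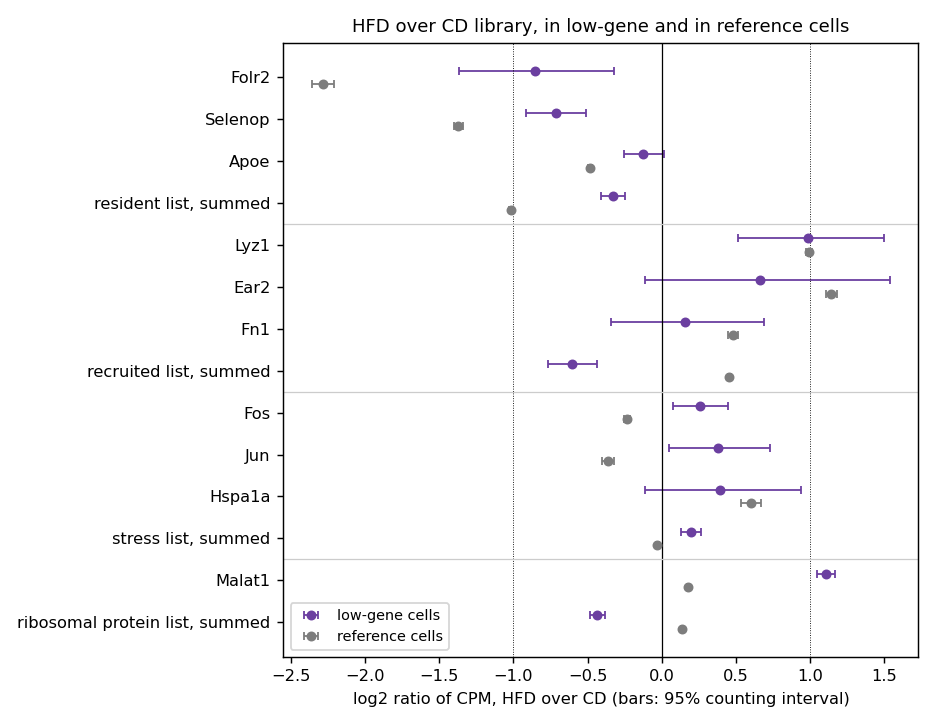
Log2 ratio of CPM in the HFD over the CD library (x axis) in low-gene cells (purple) and reference cells (grey), for the genes of the rule and the summed lists (y axis); bars are 95% counting intervals and dotted lines mark 2-fold. Resident genes lie nearer 0 in low-gene cells than in reference cells, and *Malat1* is at 1.11 in low-gene cells against 0.18.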

How the data were processed

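Whole-number UMI counts were deposited by the authors without normalization, 1 gene-by-barcode matrix per library, made with Cell Ranger 3.0.2 per the submitters' processing notes (10x Genomics 3' v2 chemistry, mm10 with Ensembl 93). Barcodes that Cell Ranger had not called as cells were not analysed here. The software was pandas 2.3.3, numpy 2.4.6, matplotlib 3.10.9 and scipy 1.17.1 under Python 3.11.15. Members had at least 200 and fewer than 600 genes and at most 10% of UMIs from genes starting with mt-, and reference cells 1000 to 3500 genes. UMIs were summed over each pool, scaled to CPM, and compared with exact Poisson, conditional binomial, Clopper-Pearson and Newcombe 95% intervals. Genes at 0 in 1 pool were set to a floor of 3 counts. The members and gene lists were chosen with earlier results of these data known. Named were the 10 genes of the rule, the 8 highest and 8 lowest stable ratios per comparison at a mean of at least 100 CPM, and up to 4 most abundant genes of each list; further genes of the resident, recruited and stress lists, *S100a8* and *Cfd* counts in single cells, and *Mmp9*, were given after their values were seen. Of the 8 lowest ratios of low-gene over reference cells, 7 are reported and the other is not reported here. No doublets were removed. The 14 alternatives changed gene limits, mitochondrial limit, scaling, cell weight, depth, expression filter and cells with other lineages' genes, and 3 of them were chosen after seeing the data, as were levels by gene number without erythroid and neutrophil barcodes. The 2 that combined choices took no part in the rule for named genes. The code was tested on simulated data. Positions are from GENCODE M21 on GRCm38.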

Additional observations from a re-analysis of the deposited data

Results flagged for a closer look

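Several values had opposite signs in the libraries or cell classes, each with a counting interval apart from 0; with 1 library per diet the differences were not tested. HFD over CD, as log2 ratios in low-gene cells and then in reference cells, differed in sign for the recruited list (-0.60 and 0.46), the stress list (0.20 and -0.029), the lipid-associated list (-0.24 and 0.82), the alternative activation list (-0.62 and 0.27), the pan-macrophage list (-0.21 and 0.10), translation factors (-0.26 and 0.27) and ribosomal protein genes (-0.43 and 0.13). Without erythroid and neutrophil barcodes the recruited list gave -0.19 in low-gene cells, and -0.020 with at most 5% mitochondrial UMIs as well. In the lipid-associated list *Fabp4*, which lay in 11 CD members, gave -1.33 in low-gene cells and 1.81 without cells with other lineages' genes and 0.25 with the CD library thinned, and *Plin2* gave 1.78. The erythroid list gave 6.64 and -5.93, with 2 HFD barcodes holding most of its UMIs among low-gene cells and 887 CPM in CD reference cells. Its genes *Hbb-bs* (6.34 and -5.54), *Hbb-bt* (6.31 and -5.88), *Hba-a1* (6.75 and -6.56) and *Hba-a2* (7.95 and -6.26) are near-identical pairs whose split is uncertain.

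Among immediate early genes of the stress list, HFD over CD was above 0 in low-gene cells and below 0 in reference cells for *Fos* (0.26 and -0.24), *Jun* (0.38 and -0.36), *Fosb* (0.46 and -0.28), *Zfp36* (0.36 and -0.054) and *Ier2* (0.52 and -0.068). The resident gene *Cd163* (0.74 and -0.79) and the nuclear *Neat1* (0.51 and -0.12) had those signs too. The signs were the other way round for the recruited genes *Ccr2* (-0.88 and 0.17), *Cd52* (-0.77 and 0.21) and *Msrb1* (-2.06 and 0.20), for *Retnla* (-0.60 and 0.31), *H2-Ab1* (-0.22 and 0.33) and *Lpl* (-0.89 and 0.19), and for the housekeeping genes *Tmsb10* (-0.86 and 0.055), *Tpt1* (-0.52 and 0.11), *Fau* (-0.44 and 0.081), *Uqcrh* (-0.79 and 0.15), *Rpl37a* (-0.43 and 0.17) and *Rpl41* (-0.47 and 0.18). The median of all genes tested was -0.27 in low-gene cells and -0.03 in reference cells.

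The ratio of low-gene over reference cells differed in sign between CD and HFD for the lipid-associated list (0.95 and -0.10), of whose low-gene UMIs *Fabp4* gave 142 of 240 in CD and 325 of 1166 in HFD, and for the erythroid list (-1.70 and 10.88), with *Hbb-bs* at -1.21 and 10.67, *Hba-a1* at -1.94 and 11.37 and *Hba-a2* at -3.14 and 11.07. The resident genes *Pf4* (-0.30 and 0.34) and *Cd209f* (-0.93 and 0.92), and *Actg1* (0.41 and -0.22) and *Dbnl* (1.16 and -0.78), did so as well.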

How the results depend on the processing

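Of the 14 alternatives, 12 were applied 1 at a time and 2 combined 2 choices; the last 3 were chosen after seeing the data. Of 159 alternative values of the summed lists, the share and the counts of calls, 81 stayed within the counting interval or, for counts of calls, within 1.5 times, 70 moved further and 8 changed sign; of single-gene values 24 changed sign. The cause of these changes was not tested, and 14 CD members with under 400 genes and 18 with at most 5% mitochondrial UMIs limit the precision there. Values are log2 ratios unless stated. With at most 5% mitochondrial UMIs the share difference was 3.99 points, 480 genes were called in HFD, resident gave -0.26 (CD), 0.56 (HFD) and -0.078 (HFD over CD), recruited 0.21, -1.02 and -0.91, stress 0.71 (HFD) and 0.10 (HFD over CD), *AC160336.1* 1.09 (HFD over CD) and, in CD, *Apoe* -0.26, *Fn1* 0.022, *Malat1* -0.49 and *Selenop* -0.049. In members with under 400 genes the share difference was 3.06 points, 100 genes were called in HFD over CD, resident gave -0.16 (CD) and 0.47 (HFD), recruited -1.23, -2.09 and -0.40, stress 0.72, 0.67 and -0.080, *Apoe* -0.40 (CD), *Dbnl* 0.032 (HFD) and, in HFD over CD, *Cd52* 1.17, *Fos* -0.28 and *Lyz1* -0.20. With equal weight per cell resident gave -0.16, 0.53 and -0.20, recruited -0.29 (CD) and -1.44 (HFD), stress 0.52 and 0.77, *Apoe* -0.11 and *Selenop* -0.032 (CD). With the CD library thinned to a factor of 0.618 the share difference was 6.79 points, resident gave 0.55 (CD) and -0.44 (HFD over CD), recruited -1.11 and -0.24, *Dbnl* -0.019 (CD) and *Fabp4* 0.25 (HFD over CD). Without cells with 2 UMIs of another lineage resident gave 0.79 (CD) and 1.39 (HFD), recruited -1.33, -1.75 and -0.21, stress 0.78 and 0.97, and *Fabp4* 1.81 (HFD over CD). That cut left 865 CD and 827 HFD reference cells, of 2023 and 1196, and 46 and 287 members, of 59 and 323. Without erythroid and neutrophil barcodes resident gave 1.004 (HFD), recruited -0.98 (CD) and -0.19 (HFD over CD) and stress 0.91 (HFD). Against reference cells of 1500 to 3500 genes resident gave 0.45 and 1.36, recruited -0.77 and -1.80 and stress 0.73 and 0.98. In members with 300 or more genes resident gave 1.004 and stress 0.91 in HFD. On CPM without mitochondrial, ribosomal protein and *Malat1* UMIs, resident gave 1.01 (HFD) and stress 0.92 (HFD) and 0.27 (HFD over CD). At a mean of at least 100 CPM 255 genes were called in CD, 439 in HFD and 133 in HFD over CD, and at 20 CPM 1577 in HFD, against 420, 824 and 202. No paired analysis was possible because each diet had 1 library. Without erythroid and neutrophil barcodes and with under 400 genes the share difference was 2.97 points, 67 genes were called in HFD over CD, resident gave -0.16, 0.71 and -0.14, recruited -1.23, -1.85 and -0.17, stress 0.72, 0.91 and 0.16, *Apoe* -0.40 (CD), *Dbnl* 0.28 (HFD) and, in HFD over CD, *Cd52* 1.32 and *Fos* -0.037. Without them and with at most 5% mitochondrial UMIs the share difference was 3.91 points, 494 genes were called in HFD and 107 in HFD over CD, resident gave -0.21, 0.76 and 0.068, recruited -0.47, -0.82 and -0.020, stress 0.91 (HFD) and 0.28 (HFD over CD), *Apoe* -0.22, *Fn1* 0.13 and *Malat1* -0.60 in CD, and *AC160336.1* 1.19 and *Myl12b* 0.52 in HFD over CD.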
